A study of Mus musculus with 16 samples.

Results

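The airway secretory cell genes are a set of 8 genes, chosen by name: Scgb1a1, Scgb3a1, Scgb3a2, Cyp2f2, Bpifa1, Bpifb1, Aldh1a7 and Reg3g. All 8 were on the array, with 9 probe sets of 45101, since Bpifb1 had 2. The samples were whole organs, cerebellum or lung, taken from C57BL/6J mice on postnatal day 7 and hybridised as 4 groups of 4 arrays: lung with vehicle (B12, B14, B19 and B22), lung with dexamethasone (B28, B31, B40 and B46), cerebellum with vehicle (B78 to B81) and cerebellum with dexamethasone (B39, B49, B50 and B52). Dexamethasone is a synthetic agonist of the glucocorticoid receptor, and the study asked what long treatment with it does to neonatal organs. The sources used here give neither dose nor schedule. The labels name no transgene or engineered allele in any group.

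Secretory cells line the conducting airways between ciliated cells. The club cell, their main form in mouse, releases small dimeric proteins called secretoglobins and is rich in cytochrome P450 enzymes that oxidise inhaled compounds. Cells of larger airways and of glands add proteins of the BPI fold family, which bind lipids and bacterial surfaces, and mucins. Inflamed airway epithelium can add antibacterial lectins such as Reg3g. These are bulk measurements of whole organs, so fewer cells of a type and less RNA per cell cannot be told apart. All values are log2 RMA values of probe sets, on which a difference of 1 is a 2-fold change, and genes with a limma adjusted p under 0.05 are called.

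Arrays correlated at 0.946 to 0.996 within a tissue and at 0.749 to 0.830 between tissues over 18193 genes, and array medians ran from 5.87 to 6.00. The tissue labels matched their markers: Zic1 and Calb1, of cerebellar neurons, had means of 13.31 and 12.96 in vehicle cerebellum and 4.09 and 4.59 in vehicle lung. Array B46 correlated least with the rest of its group (mean 0.980). Xist, a mark of female cells, exceeded 9 in 3 treated and 1 vehicle lung array, and in 2 treated and 1 vehicle cerebellum array. For Gapdh, the 3′ probe set exceeded the 5′ one, as happens with degraded RNA, by 0.446 to 0.708 in treated and 0.840 to 1.04 in vehicle lungs, so in lung this measure cannot be told apart from treatment. For actin the excess was 0.451 to 0.642 in treated and 0.611 to 0.667 in vehicle lungs, so there the groups overlapped. Animals are not described further, so p-values measure only the spread between these samples, and numbers of vehicle and treated arrays lie in separate ranges.

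**Figure D1:**
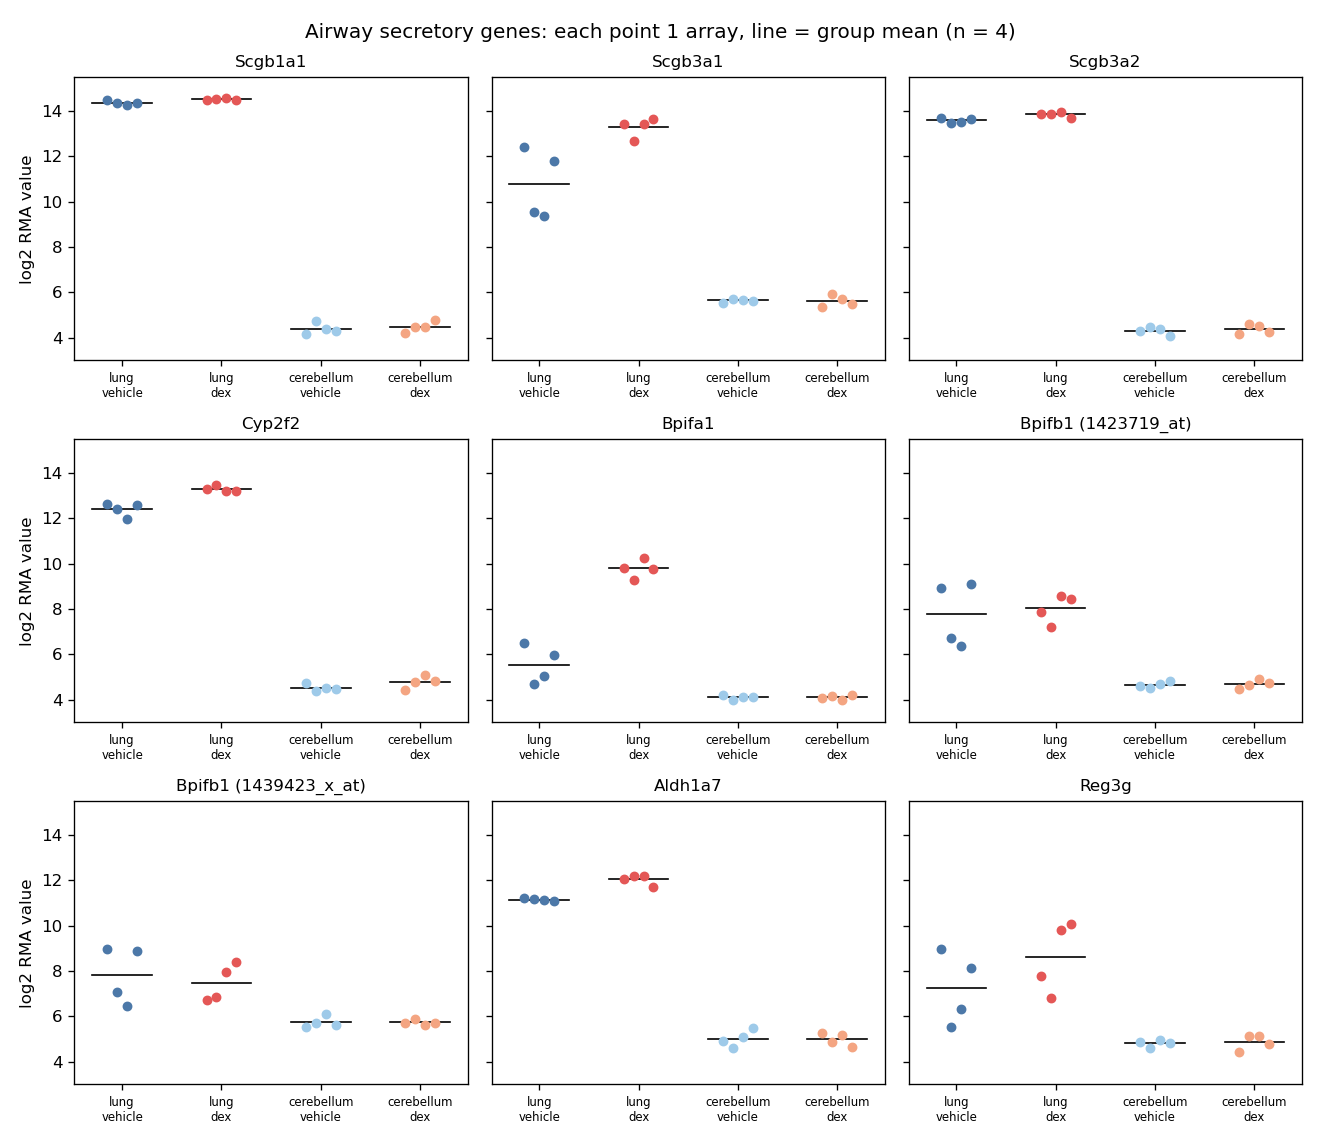
Log2 RMA value (vertical axis) of the 9 probe sets in each of the 16 arrays, by group (horizontal axis). Points are arrays and lines are group means, n = 4. All 9 probe sets were low in cerebellum, and Scgb3a1, Bpifb1 and Reg3g spread over more than 2.5 log2 units among vehicle lungs.

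In vehicle mice, all 8 genes were higher in lung than in cerebellum, where 28.7% of all genes were called higher. None of the 8 overlapped between the groups, as was true of 27.4% of all genes in that direction. The median difference of the 8 was 5.64 on the log2 scale, against 0.00175 over all genes. Cyp2f2, a cytochrome P450 of club cells, was 236-fold higher (log2 difference 7.88 ± 0.15, SE, limma adjusted p = 7.17e-12). Aldh1a7, an aldehyde dehydrogenase closely related to Aldh1a1, was 70.5-fold higher, and the secretoglobin Scgb3a1 was 35.1-fold higher. Bpifa1, a lipid-binding protein of upper airways, had the smallest difference of the 8. Its vehicle lungs read 6.50, 4.68, 5.06 and 5.96 in B12, B14, B19 and B22, and the vehicle cerebella 4.00 to 4.20, a log2 difference of 1.43 ± 0.32 (SE, limma adjusted p = 0.00227). Over all 9 probe sets the cerebellar arrays read 3.99 to 6.09, near or below the array medians. RMA compresses differences at such levels.

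In lung, 4 of the 8 genes rose with dexamethasone, Bpifa1, Scgb3a1, Cyp2f2 and Aldh1a7, and none fell. Over all genes 13.6% were called higher and 13.8% lower. The median log2 difference was 0.89 over the 8 genes and 0.05 over all genes. Scgb1a1, Scgb3a2, Bpifb1 and Reg3g were not called. The 4 called genes were also those whose treated arrays all lay above all vehicle arrays, which held for 15.1% of all genes. Each of the 4 had p = 0.0286 in an exact two-sided permutation test, the smallest that 4 arrays against 4 can give. Groups that do not overlap always give this p, so it restates the separation.

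**Figure D2:**
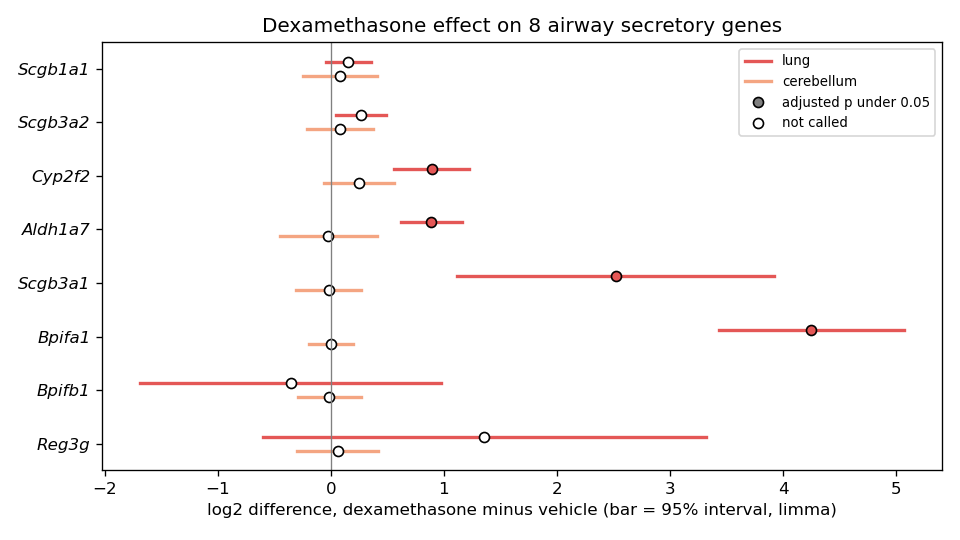
Log2 difference between dexamethasone and vehicle (horizontal axis) for the 8 genes in lung and in cerebellum. Bars are 95% intervals from limma and filled points passed an adjusted p of 0.05. Bpifa1 and Scgb3a1 lay farthest from 0 in lung, and all 8 cerebellar intervals include 0.

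The RefSeq sequences around the starts of the 4 genes that rose are shown because these members were called in the same direction. Each runs from 250 bases before to 50 after an annotated start, in build GRCm38.p6, 5′ to 3′. Capitals mark matches, on either strand, to letters known for factors of airway epithelium or glucocorticoid action: the single glucocorticoid receptor site AGAACA, the forkhead letters TGTTTAC or TGTTTGC or TATTTAC, the C/EBP letters TTNNGNAA, the NKX2-1 cores CAAGTG and CTCAAG, and the AP-1 letters TGANTCA. Matches of different motifs can overlap, and one capital run may hold both.
Bpifa1 at chr2:154142630-154142929, plus strand: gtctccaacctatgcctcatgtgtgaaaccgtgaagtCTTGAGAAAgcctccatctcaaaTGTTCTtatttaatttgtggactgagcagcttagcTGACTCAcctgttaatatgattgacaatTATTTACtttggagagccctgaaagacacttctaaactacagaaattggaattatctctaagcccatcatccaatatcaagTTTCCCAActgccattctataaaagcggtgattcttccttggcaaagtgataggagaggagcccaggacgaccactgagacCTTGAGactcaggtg
Scgb3a1 at chr11:49663345-49663644, plus strand: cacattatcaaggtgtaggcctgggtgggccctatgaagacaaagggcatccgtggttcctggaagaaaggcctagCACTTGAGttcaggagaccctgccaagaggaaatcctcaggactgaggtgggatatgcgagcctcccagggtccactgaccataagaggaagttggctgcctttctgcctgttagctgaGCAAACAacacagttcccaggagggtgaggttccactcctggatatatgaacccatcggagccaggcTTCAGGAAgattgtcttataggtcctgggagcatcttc
Cyp2f2 at chr7:27119705-27120004, plus strand: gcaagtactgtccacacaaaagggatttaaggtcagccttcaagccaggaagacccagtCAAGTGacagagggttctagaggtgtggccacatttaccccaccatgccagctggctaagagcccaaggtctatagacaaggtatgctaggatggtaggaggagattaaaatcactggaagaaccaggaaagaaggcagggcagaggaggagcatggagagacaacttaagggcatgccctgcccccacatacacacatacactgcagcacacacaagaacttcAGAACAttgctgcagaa
Aldh1a7 at chr19:20727507-20727806, minus strand: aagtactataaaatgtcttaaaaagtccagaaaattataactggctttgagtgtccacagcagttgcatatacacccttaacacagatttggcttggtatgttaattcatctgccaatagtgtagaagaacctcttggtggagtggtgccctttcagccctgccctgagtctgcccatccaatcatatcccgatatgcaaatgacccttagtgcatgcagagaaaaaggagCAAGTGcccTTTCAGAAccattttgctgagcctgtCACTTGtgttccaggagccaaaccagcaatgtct

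The single site AGAACA occurred in the windows of Bpifa1, Cyp2f2 and Bpifb1, and in 19% of 32851 windows of all genes. The paired element, AGAACA and TGTTCT with 3 bases between them, was in none of the 7 windows used, which belong to 6 of the 8 genes. It was in 0.00913% of all windows. TATTTAC was in the Bpifa1 window, at position -127 from the start, and in 1 of the Bpifb1 windows, against 3.04% of all windows. Bpifa1 also held TGACTCA, a match to the AP-1 letters, which 7.81% of all windows hold. TGTTTGC was read on the minus strand in the Scgb3a1 window, at position -55, and in 1 Bpifb1 window, against 5.07% of all windows, and TGTTTAC was in none of the 7 windows, against 3.65%. CAAGTG, found in 13.6% of all windows, was in those of Scgb3a1, Cyp2f2 and Aldh1a7. CTCAAG was in those of Bpifa1, Scgb3a1 and Reg3g, against 15.9%. TTNNGNAA was in those of Bpifa1, Scgb3a1 and Aldh1a7, against 40.7%. A match is a description of letters, not a binding site.

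Bpifa1 is a secreted protein of the palate, nose and large airways that binds surfactant lipids and limits sodium channel activity. It read 9.83, 9.31, 10.27 and 9.78 in the dexamethasone arrays B28, B31, B40 and B46, against 6.50, 4.68, 5.06 and 5.96 in vehicle lungs. Every treated array lay above every vehicle array. The means were 5.55 ± 0.83 and 9.80 ± 0.39 (SD, n = 4), a rise of 4.25 ± 0.37 on the log2 scale (SE, limma adjusted p = 4.24e-05), the fourth largest of 18193 genes. Leaving out any single lung array gave 3.96 to 4.57.

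Bpifb1, a longer protein of the same family that is encoded beside Bpifa1 and found in mucous cells, was not called. Its probe set 1423719_at read 8.95, 6.71, 6.38 and 9.10 in vehicle lungs B12, B14, B19 and B22 and 7.88, 7.22, 8.58 and 8.44 in treated lungs B28, B31, B40 and B46. The treated arrays all lay inside the vehicle range. The other probe set, 1439423_x_at, whose probes may bind other transcripts, read 8.99, 7.08, 6.45 and 8.88 and then 6.74, 6.88, 7.98 and 8.39. The log2 differences were 0.25 (95% interval -1.09 to 1.58) and -0.35 (-1.64 to 0.94), with limma adjusted p = 0.827 and 0.733 over all probe sets. Both intervals hold changes of 2-fold or more downward, and the former also upward.

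Within each lung array, Bpifa1 minus Bpifb1 (1423719_at) was -3.15 to -1.32 in vehicle and 1.34 to 2.09 in dexamethasone lungs. The group means differed by 4.00 on the log2 scale, and by 4.60 with 1439423_x_at. The pair was chosen after the values of both genes were seen, so this is a description with no test.

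Scgb3a1, a secretoglobin known mainly from larger airways, read 12.40, 9.57, 9.37 and 11.78 in vehicle lungs B12, B14, B19 and B22. Treated lungs B28, B31, B40 and B46 read 13.43, 12.67, 13.45 and 13.64. B12 and B22 were the higher vehicle arrays, and the treated arrays all lay above them. The group means were 10.78 ± 1.54 and 13.30 ± 0.43 (SD, n = 4), a 5.73-fold rise (log2 difference 2.52 ± 0.63, SE, limma adjusted p = 0.0140). The adjusted p was 0.0519 when the variance was fitted with a trend and robust estimation, which ends the call.

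Cyp2f2, which activates naphthalene in club cells, read 12.65, 12.40, 11.99 and 12.61 in vehicle lungs and 13.28, 13.49, 13.23 and 13.21 in treated lungs, in the array order used above. It rose 1.85-fold (log2 difference 0.89 ± 0.15, SE, limma adjusted p = 0.00173). The treated arrays spanned 0.28 and the vehicle arrays 0.66 log2 units.

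Aldh1a7 read 11.23, 11.17, 11.12 and 11.11 in vehicle lungs and 12.06, 12.22, 12.21 and 11.71 in treated lungs. The vehicle arrays lay within 0.12 log2 units of each other, and B46 was the lowest treated array. It also rose 1.85-fold (0.89 ± 0.12, SE, limma adjusted p = 0.000564). The near-identical gene Aldh1a1, which makes retinoic acid, rose by 0.81 in lung. Whether the probe sets share signal was not tested. In cerebellum Aldh1a1 rose by 1.12 from a vehicle mean of 8.71, while Aldh1a7 had a vehicle mean of 5.02 and a log2 difference of -0.02.

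Scgb1a1 and Scgb3a2, the abundant secretoglobins of club cells, were not called. Scgb1a1 read 14.50, 14.34, 14.26 and 14.36 in vehicle lungs and 14.49, 14.53, 14.58 and 14.49 in treated lungs, so the groups overlapped. The log2 difference was 0.16 (95% interval -0.04 to 0.35, limma adjusted p = 0.226). No probe set read above 14.83 on any array, and a change of a gene this close to the ceiling can be lost to saturation.

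Scgb3a2 read 13.71, 13.48, 13.53 and 13.64 in vehicle and 13.88, 13.87, 13.98 and 13.70 in treated lungs. The groups overlapped only through treated B46, at 13.70, and vehicle B12, at 13.71. The log2 difference was 0.27 (95% interval 0.04 to 0.49, limma adjusted p = 0.0742), and exact permutation gave p = 0.0571. It was called without B46 (0.32, limma adjusted p = 0.0320) and under 5 other settings (limma adjusted p 0.0164 to 0.0467).

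Reg3g, a secreted lectin that kills gram-positive bacteria, varied most. Vehicle lungs B12, B14, B19 and B22 read 9.00, 5.54, 6.34 and 8.16, and treated lungs B28, B31, B40 and B46 read 7.77, 6.82, 9.82 and 10.07. B40 and B46 lay above every vehicle array, while B28 and B31 lay inside the vehicle range. The log2 difference of 1.36 ± 0.88 (SE, limma adjusted p = 0.294) had a 95% interval of -0.60 to 3.32. It was 0.79 without B14, 0.88 without B46 and 1.96 without B31, and 0.75 with array weights and 2.04 with Xist as a covariate, and was called in none of these (limma adjusted p 0.0977 to 0.573).

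**Figure D3:**
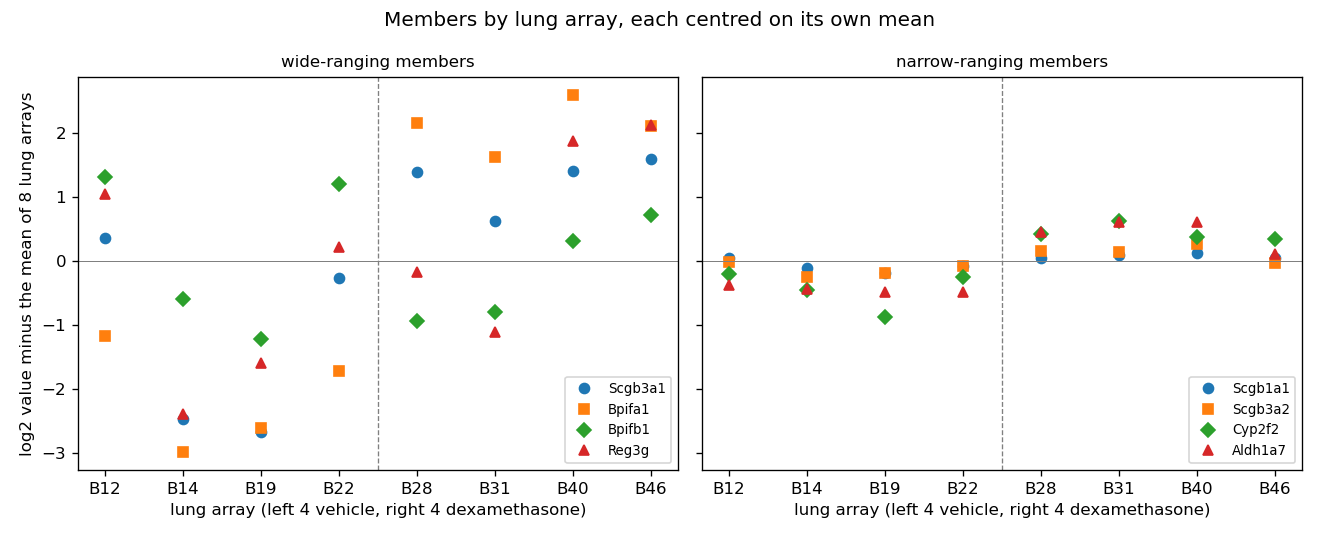
Log2 value of each gene in each lung array, minus the gene's mean over the 8 lung arrays (vertical axis), by array (horizontal axis). The left panel holds the 4 genes whose lung arrays spanned more than 2 log2 units, and the right panel the other 4. In vehicle lungs the left panel has B12 and B22 above B14 and B19 for each gene.

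The spread among vehicle lungs was itself unusual for 4 of the genes. The median gene spanned 0.33 log2 units over the 4 vehicle lungs. Reg3g spanned 3.45, the third widest of 18193 genes, Scgb3a1 3.04, the seventh, and Bpifb1 2.54, the eighth. Bpifa1 spanned 1.82, as wide as or wider than all but 0.110% of genes. Of the 8 widest genes, Xist and the Y-linked genes Eif2s3y, Uty and Kdm5d separate B14, with Xist at 11.93, from the other arrays. The secretory genes followed another order: all 4 had B12 and B22 above both B14 and B19. That order was not theirs alone. Car3, at rank 4, had it too (8.40, 4.97, 6.32 and 6.66 in B12, B14, B19 and B22). Trgv4, Gpnmb, Saa3 and Cxcr6, also among the 20 widest, had it as well, while Trim10 and Mbp did not. In the same arrays the narrow genes of the set had the same highest arrays, except that Aldh1a7 had B22 lowest, and spanned 0.12 to 0.66. In treated lungs the span was 3.24 for Reg3g, 1.65 for Bpifb1 and under 1 for Scgb3a1 and Bpifa1.

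The gene lists described further on were set beside that spread. In 8 of the lists, airway or not, the mean level was also highest in B12 and B22, by smaller amounts. In B12, B14, B19 and B22 the 11 ciliated cell genes averaged 6.999, 6.72, 6.68 and 6.96, and the 10 goblet cell genes 5.60, 5.27, 5.31 and 5.61. The 24 other secretory genes averaged 9.30, 9.05, 9.01 and 9.23, the 21 mucosal defence genes 8.28, 8.10, 8.10 and 8.44, and the 6 basal cell genes 5.34, 5.15, 5.28 and 5.41. The 19 transcription factor and Notch genes averaged 9.20, 9.19, 9.06 and 9.32, the 8 alveolar type 2 genes 12.64, 12.62, 12.33 and 12.72, and the 10 macrophage genes 8.86, 8.67, 8.65 and 8.94. The order was not shared by the remaining lists, among them cartilage and general epithelium. The 9 cartilage genes of large airways averaged 4.89, 4.94, 4.98 and 4.94 in B12, B14, B19 and B22, all below the array medians. The 12 general epithelial genes averaged 9.82, 9.83, 9.83 and 10.01. The part of any of these in the spread was not tested.

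Over the 8 lung arrays, the genes outside the set with the most similar centred profile were named for each wide-ranging member, by the root mean square difference on the log2 scale. For Reg3g they were Pigr, which carries antibodies across epithelium (0.734), and the airway mucin Muc5b (0.852). For Bpifb1 they were Tff2, a trefoil peptide of mucous cells (0.558), and Cd200r4 (0.612). For Scgb3a1 they were Fabp4 (0.636) and the protease Adam8 (0.732). For Bpifa1 they were the macrophage gene Chil3 (0.467) and the neutrophil gene Mmp8 (0.600). The measure includes the step between vehicle and treated arrays, so genes with a rise of like size lie close. Bpifa1 rose by 4.25, Chil3 by 4.67 and Mmp8 by 3.84 on the log2 scale. Pigr read 6.37, 5.30, 5.52 and 6.14 in vehicle and 6.05, 6.09, 8.65 and 9.21 in treated lungs. As with Reg3g, B40 and B46 were the highest arrays.

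In cerebellum no member was called by limma, where 3.96% of all genes were called. At an unadjusted p under 0.05 the count was also 0 of 8, against 18.1% of all genes. Log2 differences ran from -0.02 for Aldh1a7 to 0.25 for Cyp2f2, which had the smallest adjusted p of the 8, 0.393. Cyp2f2 read 4.40 to 4.73 in vehicle and 4.43 to 5.08 in treated cerebella, so the groups overlapped near the floor.

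The members lay near the floor in cerebellum, so the effect in lung minus that in cerebellum largely repeats the lung effect. This difference was called for the same 4 genes as the lung effect, against 9.85% of all genes called in that direction. It was 4.25 ± 0.41 for Bpifa1, 2.54 ± 0.70 for Scgb3a1, 0.91 ± 0.24 for Aldh1a7 and 0.64 ± 0.21 for Cyp2f2 (SE, limma adjusted p = 4.49e-06, 0.0164, 0.0126 and 0.0409). That for Cyp2f2 was lost on leaving out any 1 of B39, B49, B52, B78, B80, B81, B28, B31, B40, B14 or B19 (limma adjusted p up to 0.0838).

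Other genes of airway secretory cells were measured for context, from a list of 28 of which 24 were on the array. In lung 14 rose and 1 fell, with a median log2 difference of 0.95. For this list and those below, 13.6% of all genes were called higher in lung and 13.8% lower. Sult1d1, a sulfotransferase, rose 7.05-fold, and the claudin Cldn10, the glutathione transferase Gsta3 and the cytochrome P450 Cyp4b1 rose 2.87-fold, 2.87-fold and 2.80-fold (limma adjusted p 2.05e-06 to 3.50e-05). The vehicle lung mean of Sult1d1 was 4.62, below the array medians, where RMA compresses differences. Upk3a, a uroplakin of a club cell subset, fell by 0.59. Its treated mean of 5.27 was near its 5.23 in vehicle cerebellum, so the fall may be understated. Muc5b had 1.08 and Pigr 1.67 with limma adjusted p = 0.0588 and 0.101.

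Of 19 transcription factors and Notch genes of airway epithelium, 7 rose and 1 fell. Cebpd and Cebpa, C/EBP factors known to act on the Scgb1a1 promoter, rose 3.47-fold and 1.74-fold. Klf5 and Elf3 rose 2.24-fold and 1.96-fold, and Notch1, whose pathway favours the secretory over the ciliated fate, fell by 0.68. The other Notch genes of the list, Notch2, Jag1, Jag2, Hes1 and Rbpj, were not called, with log2 differences of -0.26 to 0.07. Of 21 genes of mucosal defence 9 rose, among them the chemokine Cxcl17 (4.03-fold), the iron-binding protein Ltf (6.78-fold), the protease inhibitor Slpi (5.43-fold) and Wfdc2 (1.45-fold). Of 10 goblet cell genes Fcgbp rose 1.32-fold and Clca1 fell, near the 13.6% and 13.8% of all genes called higher and lower. Clca1 read 5.97, 4.19, 4.44 and 5.49 in vehicle lungs, again with B12 and B22 highest, and 3.88 to 3.98 in treated lungs. The treated mean of 3.92 was near that of vehicle cerebellum, 3.90, so the measured fall of 1.11 on the log2 scale may understate the change.

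**Figure D4:**
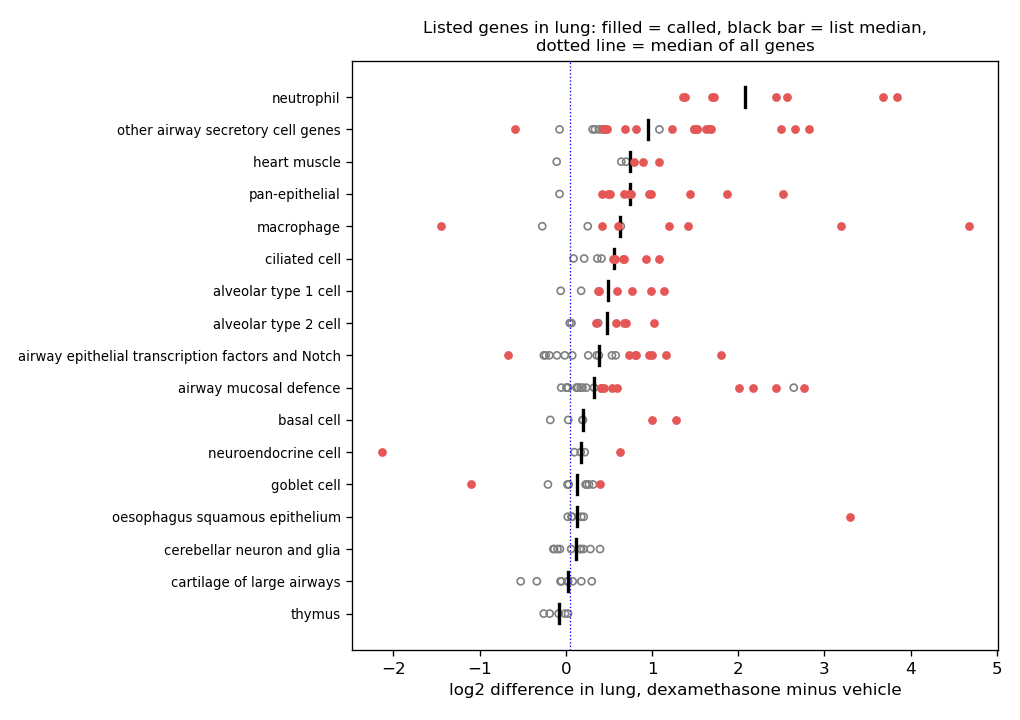
Log2 difference between dexamethasone and vehicle in lung (horizontal axis) for each measured gene of the other lists (vertical axis). Filled points were called, black bars are list medians and the dotted line is the median of all genes, 0.05. The airway secretory list had a median of 0.95, the general epithelial list 0.74 and the goblet cell list 0.13.

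Epithelial genes in general also rose in lung. Of 12 general epithelial genes 11 rose, with a median of 0.74, near the 0.89 of Cyp2f2 and of Aldh1a7; the keratins Krt19 and Krt8 rose 2.71-fold and 1.66-fold, and the claudins Cldn3 and Cldn4 3.67-fold and 5.71-fold. Their mean level was 9.82 to 10.01 in vehicle and 10.69 to 11.01 in treated lungs. Of 11 ciliated cell genes 7 rose (median 0.56), led by Dynlrb2 at 1.90-fold. Of 8 alveolar type 2 and 8 alveolar type 1 genes, 5 and 6 rose (medians 0.48 and 0.49). Of 6 basal cell genes Aqp3 and Krt15 rose 1.99-fold and 2.43-fold, while the defining genes Krt5 and Trp63 had -0.18 and 0.03 from means of 5.47 and 5.33. Of 5 neuroendocrine genes Resp18 rose by 0.63 and Ddc fell by 2.14. With 13.6% of all genes called higher and 13.8% lower, 1 call each way in so short a list is near those shares.

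Markers of other cells moved with treatment too. All 8 measured neutrophil genes rose (median 2.08), and their mean level was 8.55 to 9.38 in vehicle and 10.76 to 11.50 in treated lungs. Ltf, named above, is also stored in neutrophils. Of 10 macrophage genes 6 rose and 1 fell (mean level 8.65 to 8.94 and 9.68 to 10.24). Of 6 heart muscle genes 3 rose (median 0.75). Of 6 oesophageal genes 1 rose, Sprr1a, near the 13.6% of all genes called higher. By limma, 0 of 9 cartilage genes, 0 of 5 thymus genes and 0 of 10 cerebellar genes were called. Sprr1a had means of 4.46 in vehicle and 7.75 in treated lungs, and since the former was near its 4.41 in vehicle cerebellum, no fold is given. The defining oesophageal keratins Krt13 and Krt4 had means of 4.40 and 4.45 in vehicle lungs, with differences of 0.21 and 0.02. The part of these cells in the rise of the 4 secretory genes was not tested.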

How the data were processed

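Values were log2 probe set levels made with RMA from Affymetrix mouse arrays, per the submitters' processing notes, deposited by the authors without a version or settings being stated. Biotin-labelled targets were made from total RNA, per the labels' protocols, and all arrays share a hybridization date. Of 45101 probe sets 64 were controls, 34945 had 1 symbol and 932 several, which named no gene. Symbols were updated through the gene identifier (18032 of 18193 genes). A gene was represented by its brightest probe set over 16 arrays.

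The fits used limma 3.58.1 (R 4.3.3), each on the arrays compared (6 residual degrees of freedom; 12 for the difference between tissues), with eBayes and Benjamini-Hochberg adjustment over 18193 genes. The tissues were not pooled for the treatment effects, because a small spread was expected for members near the floor in cerebellum. That did not hold for all members. Scgb1a1, Scgb3a2 and Aldh1a7 had SDs of 0.25, 0.19 and 0.36 in vehicle cerebellum, against 0.10, 0.10 and 0.06 in vehicle lung. The other members had the smaller SD in vehicle cerebellum. The pooled fit was an alternative. The fit was tested on simulated data, in which 200 of 18193 genes changed and normally distributed noise had 1 SD per gene, the same in all groups. It recovered 30% of 1.5-fold and 80.5% of 2-fold changes in lung. For the difference between tissues it recovered 9.5% and 72%, and 13.6% and 5.26% of the calls were false. In the real lung data 13.6% of genes were called higher and 13.8% lower, and SDs of some members differed between groups. The recovered shares are therefore not those of the real comparisons. The members, lists and rules were chosen with earlier results of these data known. Named genes were all members, up to 4 called genes per list with the smallest adjusted p (the 2 brightest where none was called), and the 2 most similar genes for members spanning over 2 log2 units in lung; others were chosen after their values were seen. Promoter sequences are RefSeq's, build GRCm38.p6, with windows used for 6 of 8 members. A chromosome was left out of the member windows by rule, but not of the windows of all genes. Alternatives were the mean of probe sets, each probe set, dim genes left out, quantile or cyclic loess normalization, a variance trend, array weights, a fit of all 16 arrays, an Xist covariate and each array left out in turn. Arrays give no read depth, and 4 per group limit the precision.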

Additional observations from a re-analysis of the deposited data

Results flagged for a closer look

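The effect of dexamethasone differed between lung and cerebellum by a test of the difference (limma, all 16 arrays) for Bpifa1 (4.25 on the log2 scale), Scgb3a1 (2.54), Aldh1a7 (0.91) and Cyp2f2 (0.64), with the adjusted p given above. In cerebellum these genes lay at the floor of the array. No array of a group stood apart for any of the 9 probe sets by Dixon's criterion for 4 values.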

How the results depend on the processing

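In lung the calls for Bpifa1, Cyp2f2 and Aldh1a7 kept their direction and stayed called under every alternative run. Scgb3a1 had the same log2 difference of 2.52 with a variance trend and robust estimation but was not called (limma adjusted p = 0.0519, against 0.000944 to 0.0387 elsewhere). Scgb3a2 was called with that trend or with dim genes left out (both 0.27), after cyclic loess (0.33), with array weights (0.29) and with Xist as a covariate (0.32); leaving out single arrays gave 0.22 to 0.32, called without B46. The difference between tissues for Cyp2f2 was not called with each probe set fitted (0.64, limma adjusted p = 0.0544) or after quantile normalization (0.56, 0.0622), and leaving out single arrays gave 0.50 to 0.74. Genes called in lung numbered 4981 of 18193. When each probe set was fitted, 9034 were called, out of 45101 without the 64 controls, so the counts have unlike totals. No other call changed. Dim genes left out removed all 8 members in cerebellum, so that setting gave no value there. No paired analysis was possible because the groups share no replicate numbers. Values near the floor in cerebellum and near the ceiling for Scgb1a1 limit what a change could show.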

Other observations

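Relatives of the members on the array were mostly near the floor. Of the other BPI fold genes measured, Bpifb5 fell in lung from a mean of 6.55 to 5.87 (log2 difference -0.69, limma adjusted p = 0.0232), and Bpifb3 rose by 0.38 from 4.55 (limma adjusted p = 0.0252). Bpifa2, Bpifa3, Bpifa5 and Bpifb2 had vehicle lung means of 4.21, 4.60, 5.36 and 4.67 and were not called. The other regenerating lectins Reg3a, Reg3b and Reg3d had vehicle lung means of 4.00, 4.57 and 4.34 and were not called, so Reg3g alone of its family read above 6. The lacrimal and salivary secretoglobins Scgb1b2, Scgb1b27 and Scgb2b27 had means of 4.09, 5.44 and 3.98 and were not called.

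The acute phase gene Saa3 read 9.63, 8.13, 8.001 and 9.98 in vehicle lungs B12, B14, B19 and B22, and 10.88, 8.79, 12.35 and 14.30 in treated lungs B28, B31, B40 and B46 (limma adjusted p = 0.0762). Saa3 and the member Reg3g both had B12 and B22 as the higher vehicle arrays and B40 and B46 as the higher treated arrays. Among genes that ranged widely in treated lungs, Ccl3 and Cxcl2 also had B40 and B46 highest, while Hemgn did not. In cerebellum, where the members did not change beyond the threshold, the carbonyl reductase Cbr2 rose by 0.72 from 5.18 (limma adjusted p = 0.0179).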
